A study of Saccharomyces cerevisiae with 6 samples.

Results

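The TRiC chaperonin (also called CCT) is the cytosolic folding machine of eukaryotes, and its 8 subunits are encoded in yeast by *TCP1* and *CCT2* to *CCT8*. These 8 genes were taken by name from the array annotation, each was measured by 1 probe set of its own, and they make up 8 of the 5656 genes that had a probe set to themselves. Transcript levels were compared between 3 cultures of *Saccharomyces cerevisiae* S288C given 70 μM pterostilbene and 3 control cultures of the same strain given 0.25% DMSO, the solvent, alone. Pterostilbene is a stilbene made by grapevine and is a methylated relative of resveratrol. The strain is haploid, of mating type α, with the alleles *flo8-1*, *flo1*, *gal2*, *mel* and *mal* beside functional *CUP1* and *SUC2*. All 6 cultures were started from an overnight culture of a single colony and grew in parallel in synthetic dextrose medium, and total RNA of each was hybridized to an Affymetrix Yeast Genome S98 array. The final DMSO content of the treated cultures is not stated in the labels, so a difference in solvent between the groups cannot be told apart from the compound. Cultures were collected at the same optical density and not after the same time, so effects of the compound and of a slower growth rate or a longer culture cannot be told apart.

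TRiC is built from a pair of stacked rings, each holding 1 copy of all 8 related subunits around a central chamber. Unfolded protein is bound inside, the chamber is closed by a lid that forms when ATP is hydrolysed, and the folded protein is released. Actin and the tubulins are its best known clients, with β-propeller proteins such as the cell cycle activators Cdc20 and Cdh1. Each subunit is essential in yeast. Subunits differ in how they use ATP, and the tightly binding subunits Tcp1, Cct2, Cct4 and Cct5 lie on one side of the ring, opposite the weakly binding Cct3, Cct6, Cct7 and Cct8. Prefoldin passes unfolded actin and tubulin to TRiC, while dedicated tubulin cofactors take over after it.

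On the deposited scale, the RNA of the TRiC subunits differed little between cells given pterostilbene and control cells. *CCT2* rose 1.36-fold, none fell, and the other 7 did not pass the test (limma, adjusted p under 0.05 over all probe sets). Over all genes, 35.8% rose and 18.4% fell in the same test, so the share of the subunits that changed was below the share among genes in general. No subunit was beyond 2-fold, and the 95% intervals of the 8 subunits lay between 0.828-fold and 1.60-fold. The median log2 difference of the 8 was 0.18, against 0.22 for all genes.

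Values are linear signals per probe set. The 2% trimmed mean was 500.4 or 500.5 on every array, while the median signal was 162 to 170.2 with pterostilbene, against 119.1 to 123.4 in the controls, so every difference depends on how arrays are set on 1 scale. The 12 poly-A control probe sets were on average 5.11-fold higher with pterostilbene and the 9 hybridization controls 1.06-fold. The 3′ over 5′ ratio of the actin control probe sets was 1.45 ± 0.048 with pterostilbene and 1.21 ± 0.171 in the controls (SD, n = 3 each). All 4 α-cell markers fell, with log2 differences from -1.30 for *MF(ALPHA)1* to -4.73 for *MF(ALPHA)2*. Their summed signal was 4896 to 5972 with pterostilbene and 20011 to 20956 in the controls, and most of it came from *MF(ALPHA)1*. The 5 a-cell markers summed to 685.1 to 950.3 with pterostilbene and 369.3 to 491.8 in the controls. Of these 5, *MFA1* and *BAR1* rose and *STE2*, the a-cell pheromone receptor, fell, with signals of 13.2 to 22.6 with pterostilbene and 29.4 to 46 in the controls. The part of these shifts in the results on TRiC was not tested. A signal is an average over a whole culture, so fewer cells with a transcript and less of it per cell cannot be told apart.

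**Figure D1:**
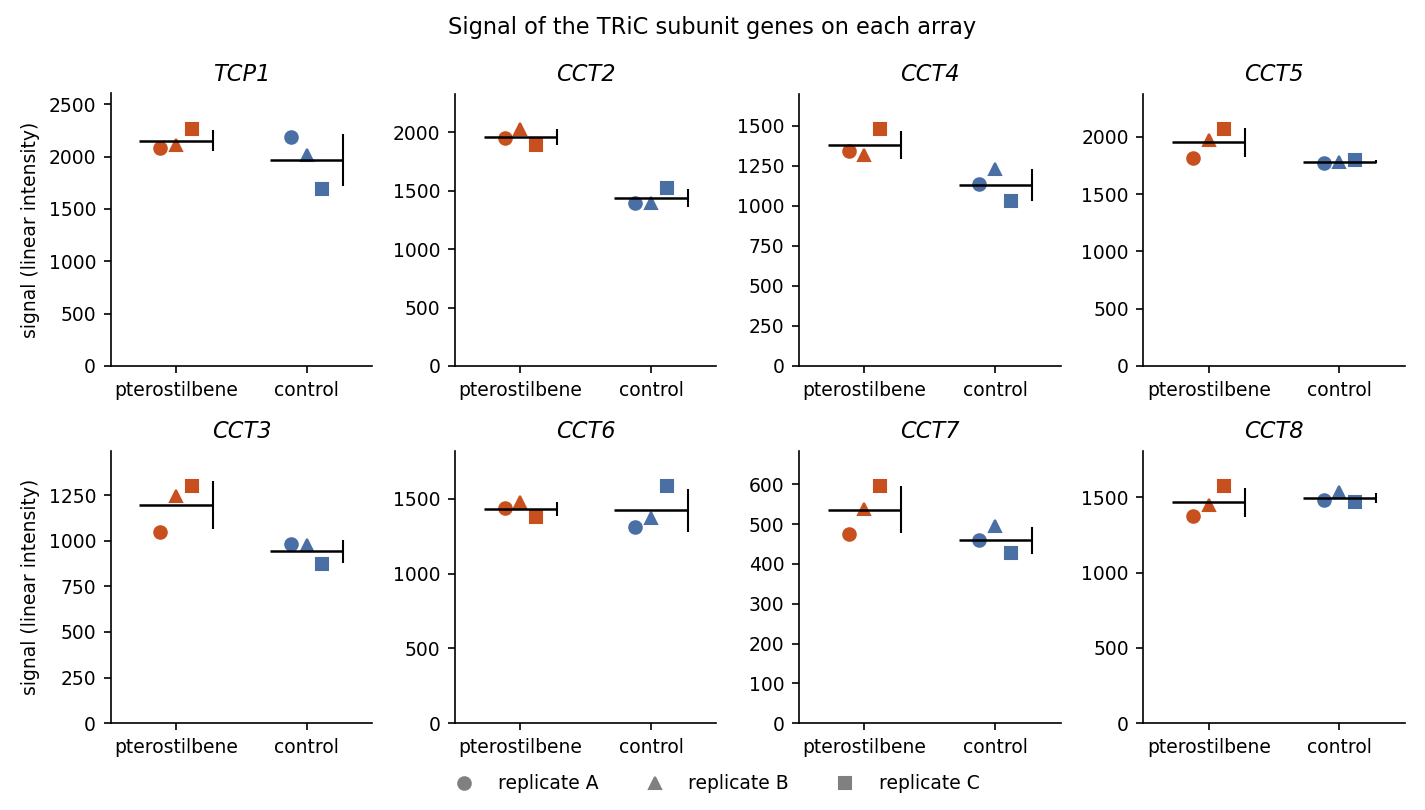
Signal of each TRiC subunit on the 6 arrays, 1 panel per gene, with pterostilbene on the left and control on the right of each panel. The y axis is the deposited linear signal and starts at 0, points are single cultures, and bars give the mean and SD (n = 3). The groups of *CCT2* are widest apart (1957 with pterostilbene and 1439.5 in the controls), while those of *CCT6* and *CCT8* overlap.

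On the tightly binding side of the ring, *CCT2* was the subunit with the clearest difference. Its signals were 1954.3, 2027.8 and 1889 with pterostilbene and 1396.6, 1395 and 1526.9 in the controls. All 3 treated cultures were above all 3 controls, and the gap was larger than the spread within either group (1957 ± 69.4 with pterostilbene and 1439.5 ± 75.7 in the controls, SD, n = 3 each). The log2 difference was 0.44 (SE 0.094, limma adjusted p = 0.0122). In absolute size 43.6% of all genes moved less than *CCT2*. Its adjusted p was 0.0535 without pterostilbene replicate B and 0.0503 without control replicate A, so that the call rested on both of these cultures.

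*TCP1*, the gene after which the complex is named, gave signals of 2082.5, 2112.6 and 2263.7 with pterostilbene and 2183.2, 2018.3 and 1692.4 in the controls. The groups overlapped, because control replicate A was higher than 2 of the treated cultures, and control replicate C lay lowest. The log2 difference of 0.14 (SE 0.13) had a 95% interval of -0.18 to 0.46 (limma adjusted p = 0.409).

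*CCT4* had signals of 1346.1, 1317.9 and 1481 with pterostilbene and 1135.2, 1231.7 and 1029 in the controls. The groups did not overlap, but the log2 difference of 0.29 (SE 0.11) did not pass (limma adjusted p = 0.0839). *CCT5* was the steadiest subunit in the controls, with 1775.9, 1778.8 and 1799.4, and gave 1813.7, 1973.9 and 2069.5 in the treated cultures. The lowest treated *CCT5* value was just above the highest control, and the log2 difference was 0.13 (SE 0.096, limma adjusted p = 0.318).

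On the weakly binding side, *CCT3* came nearest to passing. Its signals were 1049.6, 1242.4 and 1297.5 with pterostilbene and 981.7, 974.5 and 869.5 in the controls, again without overlap. Pterostilbene replicate A was the low one of its group and sat close to the controls. The log2 difference was 0.34 (SE 0.12, limma adjusted p = 0.0685), and without that replicate the adjusted p was 0.0456.

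*CCT7* was the dimmest probe set of the 8, which says nothing of its abundance, since signals of different probe sets are not on 1 scale. It gave 476.1, 537.1 and 594.5 with pterostilbene and 458.9, 493.8 and 426.2 in the controls, with 1 control above the lowest treated culture. The log2 difference of 0.22 (SE 0.13) had a limma adjusted p of 0.204.

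*CCT6* and *CCT8* were the 2 subunits with estimates nearest to 0. *CCT6* gave 1439.4, 1477 and 1380 with pterostilbene and 1312.3, 1375.4 and 1583.8 in the controls, with the highest of the 6 values in control replicate C. Its log2 difference was 0.01 (SE 0.11, 95% interval -0.26 to 0.29, limma adjusted p = 0.936). *CCT8* gave 1377.6, 1447.2 and 1572.9 with pterostilbene and 1483.7, 1536 and 1468.6 in the controls, where the control values fell inside the range of the treated ones. Its log2 difference was -0.03 (SE 0.097, 95% interval -0.27 to 0.21, limma adjusted p = 0.813).

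Across the ring, the 4 tightly binding subunits had a median log2 difference of 0.21 with 1 that rose, and the 4 weakly binding ones a median of 0.12 with none. These sides were not tested against each other. The 8 log2 differences had an SD of 0.16 and ran from -0.03 to 0.44. Among all genes the middle 50% of values ran from -0.28 to 0.78. Without *CCT2* the median of the other 7 was 0.14. All treated signals lay above all control signals for *CCT2*, *CCT3*, *CCT4* and *CCT5*, which is 4 of 8, beside 44.2% of all genes, and below them for none of the 8, beside 24.5% of all genes. For a single gene compared 3 against 3, an exact two-sided permutation test cannot go below p = 0.1.

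The probe sets of the TRiC subunits were bright, between the 71.8 and the 92.5 percentile of genes by mean log2 signal. Among the 1173 genes in their range of signal, the median log2 difference was -0.05, with 28.8% higher and 31.5% lower. The summed signal of the 8 subunits was 11539, 12136 and 12548 with pterostilbene and 10728, 10804 and 10396 in the controls. All 3 treated sums were above the controls, and the means of 12070 ± 507 with pterostilbene and 10640 ± 217 in the controls (SD, n = 3 each) gave a ratio of 1.14. The sum is weighted by the brightness of the probe sets and was not tested.

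The direction of the subunits depended on the scale chosen. After quantile normalization *CCT2* rose again (log2 difference 0.48, limma adjusted p = 0.00794) and no subunit fell, where 21.6% of all genes rose and 30.4% fell. After centring on 5 reference genes *CCT2* rose (0.44, limma adjusted p = 0.0129) and no subunit fell, with 35.8% of genes higher and 18.8% lower. These reference genes ranged from -0.48 to 0.44 on the log2 scale and 1 of them, *TRS65*, itself rose. After centring each array on the median of its 9275 tested probe sets the picture turned. That median is not the median of genes, since probe sets with no gene listed (2443 on the array) entered it. *CCT5* (-0.32, limma adjusted p = 0.0243), *CCT6* (-0.44, 0.0257) and *CCT8* (-0.48, 0.00649) fell and no subunit rose, where 19.3% of all genes rose and 39% fell. The median of all genes was then -0.23, against 0.22 as deposited, -0.13 after quantile normalization and 0.22 after reference gene centring.

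**Figure D2:**
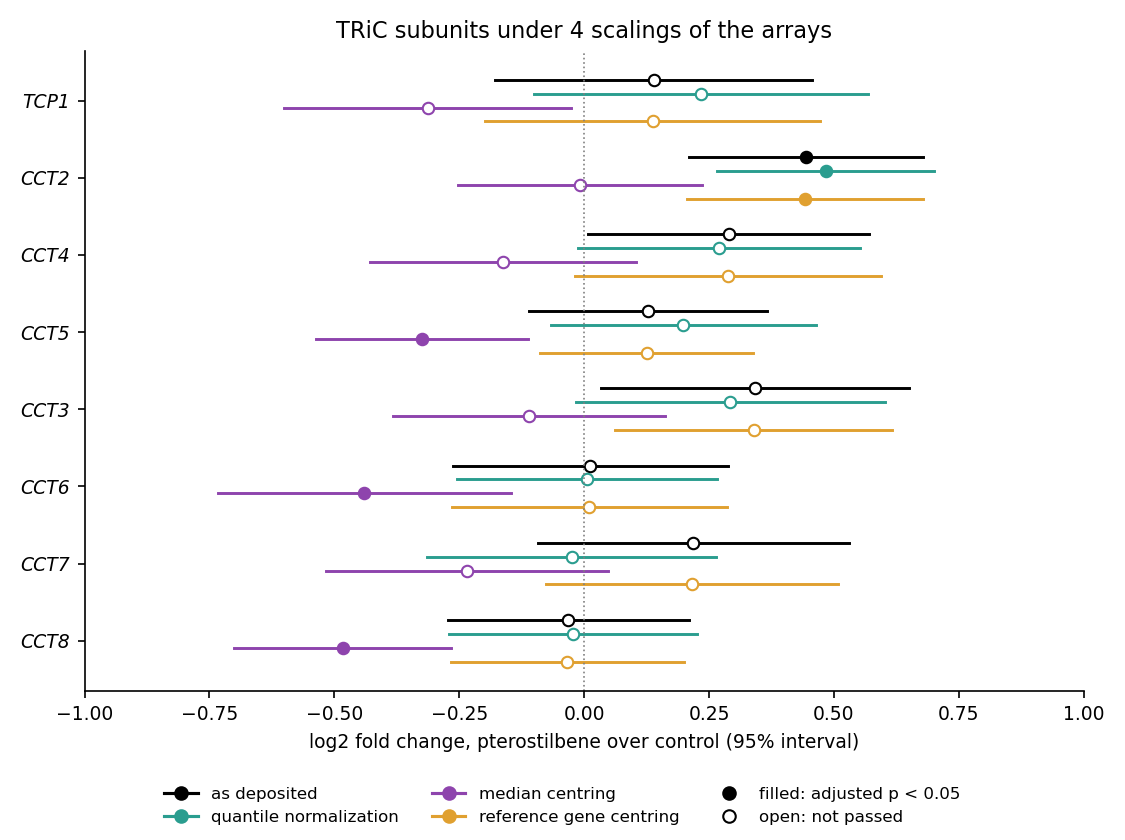
Log2 difference, pterostilbene minus control, of each TRiC subunit under 4 ways of scaling the arrays. Bars are 95% intervals from limma, and filled symbols mark an adjusted p under 0.05. *CCT2* passed under 3 scalings and was near 0 (-0.0084) after median centring, under which *CCT5*, *CCT6* and *CCT8* fell.

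A ratio within an array does not depend on how the array as a whole is centred, and each subunit was therefore set against the mean log2 signal of the other 7 on the same array, a comparison added after the data were seen. *CCT2* stood at 0.37, 0.34 and 0.15 above the others with pterostilbene, while the controls stood at -0.06, -0.09 and 0.15. The treated values were above the controls, by a narrow margin in replicate C of each group, and the difference of 0.29 (SE 0.11) did not pass (limma adjusted p = 0.0912). It passed after quantile normalization (0.35, limma adjusted p = 0.0416) and with trend and robust moderation (limma adjusted p = 0.0456). *CCT8* stood at -0.27, -0.29 and -0.21 with pterostilbene and at -0.02, 0.00 and 0.02 in the controls. All 3 treated cultures were below all 3 controls. That difference of -0.26 (SE 0.079, 95% interval -0.45 to -0.06) passed (limma adjusted p = 0.0439). With any 1 of the 6 arrays left out, its adjusted p was between 0.0545 and 0.129, and it was 0.0578 after quantile normalization, 0.0516 with a pseudocount and 0.132 with the replicate block. The call held with the dimmest 25% left out (limma adjusted p = 0.0332) and with trend and robust moderation (limma adjusted p = 0.0207). It also held with the methods' t-test (adjusted p = 0.00369).

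*CCT6* had a relative difference of -0.21, but its groups overlapped because control replicate C stood apart at 0.23 (limma adjusted p = 0.27). *CCT5* was lower relative to the others in all 3 treated cultures by a small amount (-0.07, limma adjusted p = 0.496). The remaining 4 subunits ranged from -0.06 for *TCP1* to 0.17 for *CCT3*, with overlapping groups. In all, 3 of 8 subunits did not overlap between groups in this measure, while 69% of all genes set against the mean of the 8 subunits did not.

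**Figure D3:**
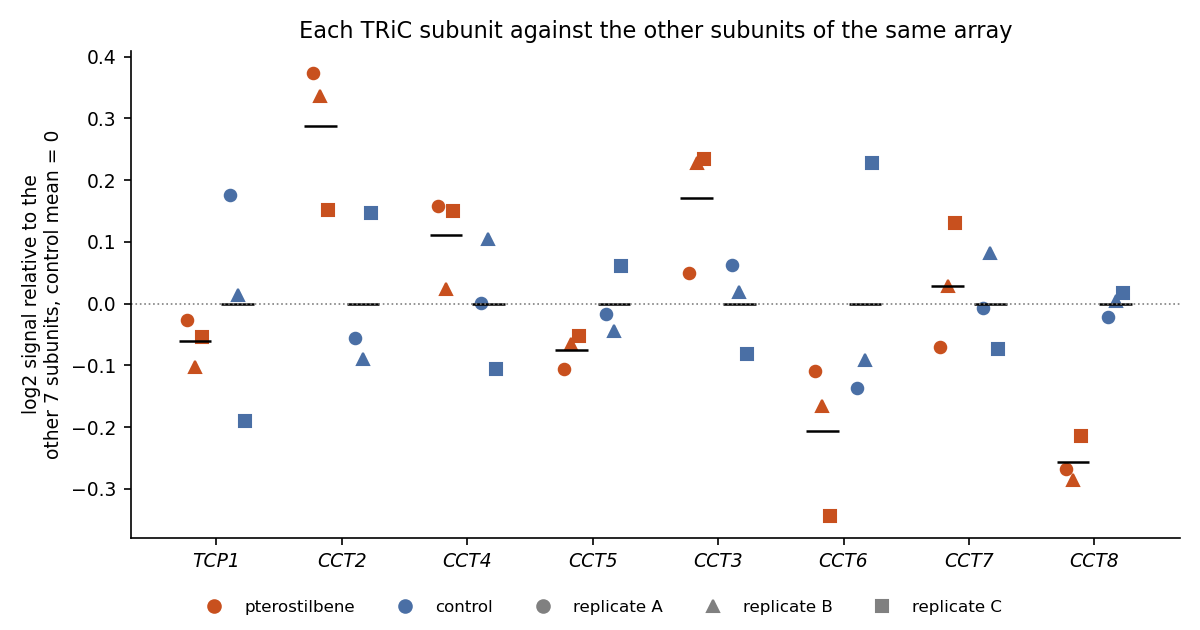
Log2 signal of each TRiC subunit minus the mean of the other 7 on the same array, with the control mean of each gene set to 0. Pterostilbene is on the left and control on the right for each gene. Each point is 1 culture and the horizontal offset within a group has no meaning. *CCT2* and *CCT8* lie furthest apart between groups, at 0.29 and -0.26.

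Genes that act with TRiC in the folding pathway changed in both directions. Of the 6 prefoldin subunits, 2 rose, 2 fell and 2 did not pass, with a median log2 difference of -0.03. *PAC10* gave signals of 194.5, 172.2 and 120.5 with pterostilbene and 492.1, 480.5 and 498.4 in the controls. Every treated culture was far below the controls, and the gene fell by 1.62 on the log2 scale (SE 0.19, limma adjusted p = 0.00172). *GIM5* also fell (-0.43, adjusted p = 0.0284), whereas *YKE2* (0.90, adjusted p = 0.0175) and *PFD1* (0.49, adjusted p = 0.0183) rose. After quantile normalization 0 of the 6 rose and 2 fell, and after median centring 0 rose and 3 fell. Without pterostilbene replicate A, without pterostilbene replicate B or without control replicate C, 1 rose and 1 fell. The count was 2 higher and 1 lower without control replicate A, and 1 higher and 2 lower without control replicate B.

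Of the cochaperones that act on TRiC, *HGH1*, which helps it fold elongation factor eEF2, fell (-0.74, limma adjusted p = 0.0222). That call was lost on leaving out pterostilbene replicate A, B or C and with the replicate block, each of which left 0 cochaperones lower. The phosducin-like *PLP2* did not pass (0.19, limma adjusted p = 0.626).

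Among 7 measured client genes, 1 rose, 2 fell and 4 did not pass, with a median of -0.23. After median centring 0 rose and 4 fell, and with trend and robust moderation 1 rose and 4 fell. *TUB1*, the main α-tubulin gene, gave 1246.3, 1411.1 and 1277.6 with pterostilbene and 2168.6, 2203.3 and 1888.5 in the controls (-0.67, limma adjusted p = 0.00538). *TUB3*, the minor α-tubulin gene, gave 2154.9, 2424.1 and 2645 with pterostilbene and 1776.1, 1861.5 and 1835.8 in the controls (0.40, limma adjusted p = 0.0319). The 2 genes are close copies whose RNA may bind the same probes, so their opposite changes are uncertain, and the call on *TUB3* was lost after median centring and in 5 of the 6 fits with 1 array left out, the exception being the fit without pterostilbene replicate A. *TUB2*, the β-tubulin gene, fell short of the threshold, as its lowest and highest treated values were 1862.6 and 2437.5, against 2645 to 2822.4 in the controls (-0.40, limma adjusted p = 0.05 after rounding). *CDC20*, the activator of the anaphase-promoting complex, fell (-0.64, limma adjusted p = 0.00919). The eEF2 genes *EFT1* and *EFT2* share a probe set and were left out.

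The 6 tubulin cofactors, which assemble the tubulin dimer after TRiC has released the folded monomers, split 1 higher, 2 lower and 3 not passed. After quantile normalization and after median centring, 4 were lower in each case. *CIN1* gave 57.3, 51.5 and 47.1 with pterostilbene and 10.2, 6.8 and 14 in the controls (log2 difference 2.39, limma adjusted p = 0.00154). Its signals were low, and it was not tested when the dimmest 25% of probe sets were left out. *CIN4* (-1.04, adjusted p = 0.00491) and *ALF1* (-0.83, adjusted p = 0.0079) fell. The median of the 6 was -0.38.

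Other chaperone families were set beside TRiC to show where it differed and where it did not. All 5 measured ribosome-bound chaperones, which receive proteins as they are made, fell, with a median of -0.73. *SSB1* and *SSB2* had no probe set of their own and were left out. The 3 with the largest change were *BTT1* (-0.88), *EGD1* (-0.86) and *ZUO1* (-0.73), and after quantile normalization 3 of the 5 fell. Signals of *BTT1* were low, at 40.8 to 51.3 with pterostilbene and 80.2 to 85.3 in the controls. *HSP60* (0.81, limma adjusted p = 0.0022) and *HSP10* (2.06, limma adjusted p = 0.00539), the chaperonin of mitochondria and its lid, both rose under all 4 scalings. *HSP60* gave 8296.5, 7489.2 and 8823.4 with pterostilbene and 4579.7, 4604.8 and 4853.6 in the controls. Of 13 cytosolic heat shock chaperones 9 rose and none fell, with a median of 2.36, led by *SSA4* (4.68), *HSP26* (3.32) and *HSP82* (2.64). The 4 that did not pass were *SSA1* (0.21), *YDJ1* (0.09), *SSA2* (0.05) and *HSC82* (0.05), within the range of the TRiC subunits. *HSP82*, *HSC82*, *SSA1* and *SSA2* also have probe sets annotated to several genes. Whether their RNA binds probes of a related gene was not tested. After quantile normalization all 13 rose, and after median centring 8 rose and 3 fell.

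**Figure D4:**
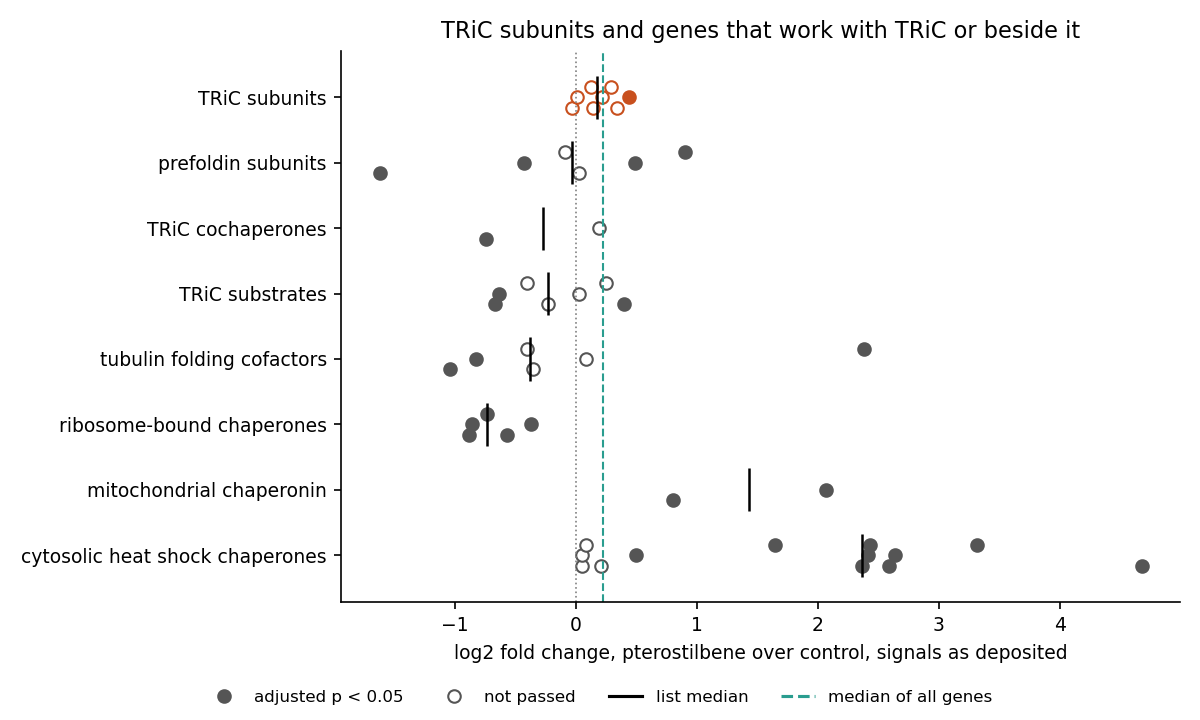
Log2 difference, pterostilbene minus control, of each measured gene of TRiC and of the other chaperone and client lists. Each point is a gene, filled where the limma adjusted p was under 0.05, and the vertical offset has no meaning. The dashed line is the median of all genes, 0.22, and the TRiC points lie between -0.03 and 0.44.

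The difference from TRiC was tested directly by subtracting the mean log2 signal of the 8 subunits on the same array from every gene, which was also added after the data were seen. On this scale 28.3% of all genes were higher and 26.8% lower. The heat shock chaperones split 8 higher, 0 lower and 5 not passed, with a median of 2.17 above TRiC. Those not passed were *SSE1* (0.31), *SSA1* (0.02), *YDJ1* (-0.11), *HSC82* (-0.14) and *SSA2* (-0.14). *HSP60* was higher by 0.61 (SE 0.11, limma adjusted p = 0.00603) and *HSP10* by 1.87 (SE 0.37, limma adjusted p = 0.00935). All 5 ribosome-bound genes were lower relative to TRiC, with a median of -0.93. Of the 7 client genes 4 were lower and none higher, and those 4 were *TUB1* (-0.86), *CDC20* (-0.83), *TUB2* (-0.59, limma adjusted p = 0.0182) and *ACT1*, the actin gene (-0.42, limma adjusted p = 0.00923). Prefoldin split 1 higher, 2 lower and 3 not passed, the cofactors 1, 3 and 2, and *HGH1* was lower.

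The TRiC genes lie on several chromosomes. *CCT3*, *CCT5*, *CCT7* and *CCT8* lie on chromosome X, *TCP1*, *CCT4* and *CCT6* on IV and *CCT2* on IX. Of 16 adjacent genes 15 were measured, of which 4 rose and 1 fell, beside 35.8% and 18.4% of all genes. The other measured ones did not pass. *SSL2*, a helicase subunit of the transcription factor TFIIH, is divergent from *CCT2* and rose by 1.30 on the log2 scale (limma adjusted p = 0.000996). *SND1*, a protein-targeting gene divergent from *CCT6*, rose by 1.98 (limma adjusted p = 0.000199) where *CCT6* was at 0.01. *UPC2*, a sterol regulator downstream of *TCP1*, rose by 3.09 and *TPH3*, upstream of *CCT3*, by 1.65. *YDL144C*, divergent from *CCT4*, fell by 0.49 (limma adjusted p = 0.0313), while *CCT4* was at 0.29.

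The genes whose profile over the 6 arrays lay nearest to the mean of the 8 subunits were *PST1*, *MNR2*, *RRP42*, *DDR48* and *PCM1*. Their root mean square distance from it was 0.0308 to 0.0423 on the log2 scale, among 2820 genes brighter than the median gene. *PST1*, a cell wall protein gene, gave 616.1, 683.6 and 708.2 with pterostilbene and 581.6, 587.7 and 587.5 in the controls. The subunits themselves lay further from the mean of their partners, from 0.0513 for *CCT5* to 0.175 for *CCT2*. A likeness of this kind is a description of small differences, shared by many genes that moved little.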

How the data were processed

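Total RNA of 3 pterostilbene and 3 control cultures, 1 array each, was measured. The authors deposited an intensity on a linear scale for each probe set of each array, made with Affymetrix software that is named as GCOS 1.1 in the submitters' processing notes. The summary algorithm and scaling target are not given in the sources used here, and per-array precision is limited by the number of arrays. All 6 value columns were used. The 60 control probe sets were set aside, 23 signals of 0 were raised to 0.1, and values were converted to log2. The 9275 probe sets were tested with limma 3.58.1 in R 4.3.3 (lmFit, eBayes) and Benjamini-Hochberg adjustment over all of them. The code was tested on simulated data. The brightest of a gene's probe sets was used, by mean log2 signal. Gene names come from the platform annotation and the RefSeq R64 gene table.

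The 8 subunits and the lists were chosen with earlier results of these data known. Named are all 8 subunits, up to 3 passing genes of largest change in each direction from each list, non-passing genes of lists with 4 or fewer, and the 5 nearest profiles. *TUB2*, *ACT1*, the heat shock chaperones that did not pass a test and the other prefoldin and adjacent genes were named after their values were seen. Arrays were alternatively quantile normalized or centred on their median over all tested probe sets or on the 5 reference genes. Further alternatives were a pseudocount of 8.7, leaving out the dimmest 25%, moderation with trend and robust options, the methods' t-test, a replicate block, averaged probe sets and leaving out each array.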

Additional observations from a re-analysis of the deposited data

How the results depend on the processing

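*CCT2* passed in 11 of the 15 settings run, the exceptions being median centring, the replicate block and the fits without pterostilbene replicate B or control replicate A. Averaging probe sets, 1 of the 11, could not change the values of the subunits, as each had 1 probe set. The count of TRiC subunits that rose, 1 as reported, was 0 after median centring, 2 with the dimmest 25% left out (with *CCT3*, adjusted p = 0.0427), 3 with trend and robust moderation (with *CCT3*, 0.0286, and *CCT4*, 0.0426) and 0 to 2 with 1 array left out, where *CCT3* was added without pterostilbene replicate A. The cause of these changes was not tested. The count that fell was 3 after median centring, and the median log2 difference was then -0.27, which turned *TCP1* (-0.31), *CCT2* (-0.0084), *CCT3* (-0.11), *CCT4* (-0.16), *CCT5* (-0.32), *CCT6* (-0.44) and *CCT7* (-0.23) below 0. Quantile normalization turned *CCT7* (-0.025) and, relative to the other subunits, *TCP1* (0.062), *CCT5* (0.022) and *CCT7* (-0.23). With 1 array left out, *CCT6* ranged from -0.044 to 0.092, *CCT8* from -0.083 to 0.012 and, relative to the others, *TCP1* from -0.16 to 0.026 and *CCT7* from -0.021 to 0.079. Whether cultures of the same letter were handled as pairs is not stated in the labels. Deviations from the group mean had correlations of -0.0363 to -0.0099 between same-letter arrays and of -0.0022 to 0.0252 between arrays of different letters. With the letter as a replicate block 0 subunits rose (*CCT2*, limma adjusted p = 0.0641), prefoldin had 1 gene higher and 1 lower, and the clients 0 higher and 2 lower. With 3 cultures a group, the 95% interval of 5 of the 8 subunits included 0.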
